A study of Mus musculus with 8 samples.

Results

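The B7 ligands and CD28 family receptors are the surface proteins through which antigen-presenting cells, tumor cells and stromal cells give T cells costimulatory or inhibitory signals. The genes were chosen by name, as probes whose symbol equals that of a ligand or receptor of the family, and all 10 were on the panel, 10 of the 750 immune-related genes it measures: the 6 ligands Cd274, Pdcd1lg2, Cd80, Cd86, Cd276 and Icosl, and the 4 receptors Cd28, Ctla4, Icos and Pdcd1. The study asked how transcripts differ in peritoneal colon cancer tumors after activation of STING, a sensor of cyclic dinucleotides that switches on interferon production. RNA came from 8 whole tumors, 4 from PBS-treated and 4 from STING-treated mice, and was counted on a NanoString nCounter panel, which counts color-coded probes bound to each RNA with no amplification.

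All mice were male wild-type C57BL/6, aged 7 to 8 weeks, and all carried 500000 cells of MC38, an established murine colon cancer line, placed in the peritoneal cavity. Treatment began on day 7 after implantation, with 2 injections into the peritoneal cavity 3 days apart. Each injection held 15 µg of RR-CDA, an agonist of STING with the further names MIW815 and ADU-S100, or an equal amount of PBS in the other group. Tumors were taken 10 days after the first injection. The model is 1 cell line at 1 time point, in tumors that the study pooled from 2 experiments without giving the experiment of each tumor. The labels name the tissue as colon although the cells grew in the peritoneum, and of the epithelial markers Epcam had 3.70 to 17.5 and Cdh1 11 to 34.6 normalized counts over the 7 samples compared. The sources used here do not say that each tumor of a group came from a different mouse, so the p-values measure only the spread between these samples.

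A T cell that meets its antigen needs a second signal, which CD28 gives when it binds CD80 or CD86 on the presenting cell. CTLA-4 binds the same ligands more tightly and restrains the response, while PD-1, bound by PD-L1 or PD-L2, recruits phosphatases that quench signaling near the T cell receptor. ICOS, bound by ICOS ligand, sustains T cells that are already activated, and in tumors PD-L1 on cancer cells and macrophages is known to be induced by interferons.

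PBS 2 and PBS 4 differed by less than the sampling noise (chi-square per degree of freedom 0.499 over 320 genes of moderate count, against 5.42 to 14.9 in the 11 other pairs within a group), so they were averaged and counted as 1 sample, which gives n = 3 against n = 4. Total counts of the 750 genes were between 241506 and 414698 per tumor. Values below are normalized counts, that is, counts scaled to the geometric mean of the panel's 20 housekeeping genes, and background is 2 SD above the average of the 8 negative control probes of a tumor, or 8.62 counts over the tumors. The efficiency of each probe is its own, so levels are compared between tumors and not between genes.

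In the mouse genome (RefSeq, GRCm38.p6) several of these genes are neighbors. Cd274 (chr19:29362107-29388095) and Pdcd1lg2 (chr19:29410919-29472927) encode the PD-1 ligands PD-L1 and PD-L2 and lie 22.8 kb apart, with 0 protein-coding genes between them. Cd28 (chr1:60746388-60773359), Ctla4 (chr1:60909025-60915832) and Icos (chr1:60960773-61000322) follow each other on chromosome 1, again with 0 protein-coding genes in either gap. Pdcd1, which encodes PD-1, lies elsewhere on chromosome 1 (chr1:94038305-94052553). Cd86 (chr16:36568956-36666158) and Cd80 (chr16:38457430-38495958) share chromosome 16 but have 24 protein-coding genes between them, and Cd276 (chr9:58524300-58555033) and Icosl (chr10:78069368-78079525) stand alone.

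Promoters of 300 bases, 250 before and 50 after a gene's start, were in the promoter set used here for 7 of the 10 genes, all but Cd86, Cd28 and Icos. They were searched on both strands for 9 short motifs after the values of the genes were known. GAAANNGAA, the core of the site that interferon regulatory factors bind, was in the promoters of Cd274 and Ctla4 and in 8.56% of all 32851 promoters. Both are shown because they are the 2 of the 7 promoters that hold it. Capitals mark the match, which lies on the reverse strand and starts 76 bases before the gene start in Cd274 (chr19:29367188-29367487, + strand) and 166 bases before it in Ctla4 (chr1:60908775-60909074, + strand). The start used for Cd274 lies inside the outer bounds given for the gene above.
Cd274: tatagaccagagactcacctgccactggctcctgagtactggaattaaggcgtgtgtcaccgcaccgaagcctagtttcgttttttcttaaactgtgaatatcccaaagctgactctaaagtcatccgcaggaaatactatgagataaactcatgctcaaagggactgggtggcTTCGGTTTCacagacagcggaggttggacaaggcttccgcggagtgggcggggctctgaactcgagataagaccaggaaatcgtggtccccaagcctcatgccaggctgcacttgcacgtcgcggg
Ctla4: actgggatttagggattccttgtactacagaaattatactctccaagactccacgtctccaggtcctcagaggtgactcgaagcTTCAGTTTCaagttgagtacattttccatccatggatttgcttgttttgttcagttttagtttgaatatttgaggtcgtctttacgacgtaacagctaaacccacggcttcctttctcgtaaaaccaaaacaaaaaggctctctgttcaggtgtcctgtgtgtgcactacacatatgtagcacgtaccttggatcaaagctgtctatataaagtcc
The same letters with a further A at the 3′ end were in 0 of the 7 promoters (3.44% of all), as were TTCNNGAA (8.52%), TTCNNNGAA (8.3%), GGGNNTTCC (5.82%) and its subset GGGANTTCC (1.68%). GAAAC, which overlaps the first motif, was in 5 of the 7 and in 45% of all promoters. TGANTCA was in Cd80 (7.81% of all), and TTC and GAA with 4 free bases between them in Pdcd1lg2 (6.95% of all). A match describes letters in this window and was not tested for binding.

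Among the ligands of PD-1, Cd274 (NM_021893.2) had 161 normalized counts in PBS 1, 120.1 in the averaged PBS 2 and 4, and 267 in PBS 3, against 524, 334, 279 and 581 in STING agonist 1 to 4. All 4 STING-treated tumors were above all PBS samples, with STING agonist 3 only just above PBS 3, and STING agonist 1 and 4 were the high ones. The means were 183 ± 75.6 (SD, n = 3) and 429 ± 146 (SD, n = 4), a ratio of 2.35, and the log2 fold change was 1.23 ± 0.35 (SE; 95% interval 0.44 to 2.01; adjusted p = 0.175, from the quasi-likelihood test of edgeR, Benjamini-Hochberg adjusted across the 750 genes). It did not pass the adjusted threshold of 0.05. In whole tumors a higher count can come from more cells that carry the transcript or from more transcript per cell, just as a lower one can come from fewer cells or less RNA per cell, and these cannot be told apart.

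Pdcd1lg2 (NM_021396.2) encodes PD-L2, which is mostly made by dendritic cells and macrophages. It had 2.78 normalized counts in PBS 1, 2.33 in PBS 2 and 4 and 14.4 in PBS 3, against 9.34, 7.33, 6.13 and 7.94 in STING agonist 1 to 4. Its raw count was above background in 4 of the 8 tumors, PBS 3 was the highest of all, and every STING-treated tumor lay between PBS 3 and the other PBS samples. The log2 fold change was 0.14 (95% interval -1.23 to 1.51; adjusted p = 0.927, edgeR). The value depended on PBS 3, without which it was 1.53 (adjusted p = 0.171), and it was below 0 without PBS 1 (-0.22), without PBS 2 and 4 (-0.21) and under both scalings to the bulk of the panel (-0.03 with TMM, -0.06 with DESeq2 size factors). With all samples no difference in Pdcd1lg2 was detectable in either direction, while without PBS 3 its unadjusted p was 0.011 (edgeR).

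Cd80 and Cd86 encode the ligands shared by CD28 and CTLA-4. Cd86 (NM_019388.3) had 37.0 normalized counts in PBS 1, 17.5 in PBS 2 and 4 and 41.1 in PBS 3, against 72.4, 52.6, 39.9 and 92.6 in STING agonist 1 to 4. The 3 STING-treated tumors other than STING agonist 3 were above every PBS sample, and STING agonist 3 lay between PBS 1 and PBS 3, so the groups overlapped in 1 tumor. The means were 31.9 ± 12.6 (SD, n = 3) and 64.4 ± 23.1 (SD, n = 4), that is, 2.02 times as high, with a log2 fold change of 1.0 ± 0.40 (SE; 95% interval 0.08 to 1.92; adjusted p = 0.231, edgeR). Cd80 (NM_009855.2), which is induced on presenting cells when they are activated, had 12.0 normalized counts in PBS 1, 30.3 in PBS 2 and 4 and 35.3 in PBS 3, against 51.4, 17.1, 30.7 and 43.2 in STING agonist 1 to 4. The groups overlapped: STING agonist 1 and 4 were above every PBS sample, and STING agonist 2 was below both of the higher PBS samples. Its log2 fold change was 0.46 (95% interval -0.64 to 1.56; adjusted p = 0.666, edgeR). It was 0.12 without PBS 1, 0.24 without STING agonist 1, 0.76 without PBS 3, 0.20 with TMM and 0.19 with DESeq2 size factors. STING agonist 2 thus had the second lowest Cd80 of all samples but a Cd86 above every PBS sample.

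Icosl (NM_015790.3), the ligand of ICOS, had 21.3 normalized counts in PBS 1, 24.5 in PBS 2 and 4 and 33.1 in PBS 3, against 51.4, 34.2, 32.7 and 50.3 in STING agonist 1 to 4. As for Cd86, 3 of the 4 STING-treated tumors were above every PBS sample and STING agonist 3 was not, since it lay just under PBS 3. The means were 26.3 ± 6.14 (SD, n = 3) and 42.2 ± 10.1 (SD, n = 4), and the log2 fold change was 0.67 ± 0.32 (SE; 95% interval -0.06 to 1.41; adjusted p = 0.299, edgeR), or 0.44 with TMM and 0.42 with DESeq2 size factors. Cd276 (NM_133983.4) encodes B7-H3, which is found on many tumor and stromal cells and whose receptor on T cells is not settled. It had 67.5 normalized counts in PBS 1, 87.4 in PBS 2 and 4 and 136 in PBS 3, against 120.3, 83.1, 82.8 and 108 in STING agonist 1 to 4. All 4 STING-treated values lay inside the range of the PBS samples. The log2 fold change was 0.02 (95% interval -0.62 to 0.66; adjusted p = 0.993, edgeR), an interval that leaves room for a difference of up to 0.66 on the log2 scale, and it was below 0 under both scalings to the panel (-0.21 with TMM, -0.23 with DESeq2 size factors).

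**Figure D1:**
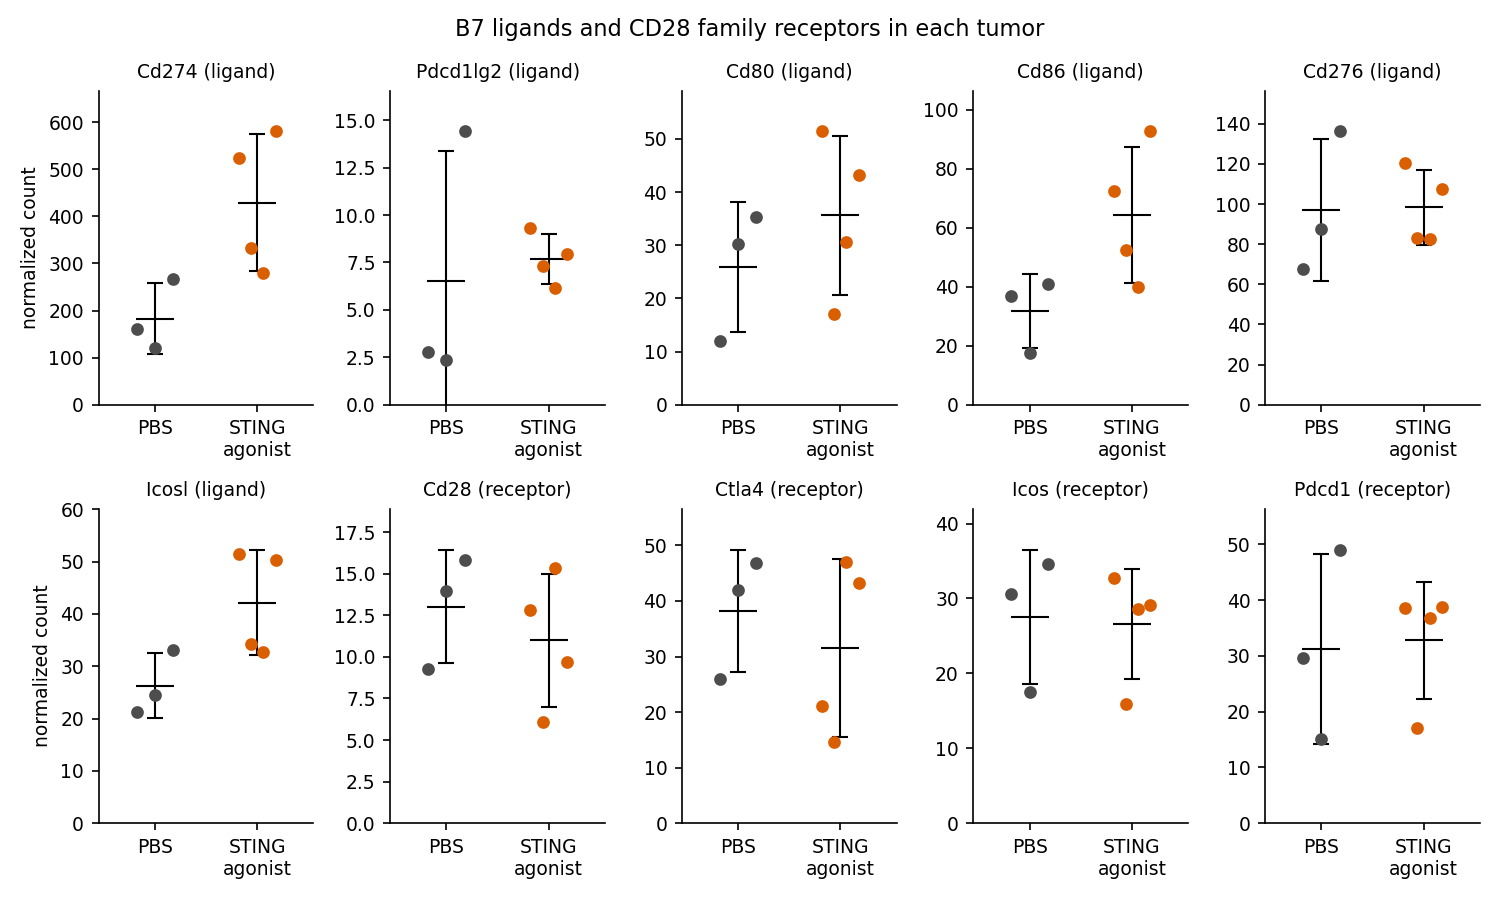
Normalized counts of the 6 ligands and 4 receptors in PBS (3 samples, gray) and STING agonist (4 samples, orange) tumors, 1 panel per gene with its own axis from 0; points are tumors, and bars give the mean and SD (the bar of Pdcd1lg2 in PBS is cut at 0). Cd274 is the gene whose groups do not overlap, and the values of all 4 receptors overlap between the groups.

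Of the receptors, Cd28 (NM_007642.4), which carries the costimulatory signal of resting T cells, had 9.25 normalized counts in PBS 1, 14.0 in PBS 2 and 4 and 15.8 in PBS 3, against 12.8, 6.11, 15.3 and 9.71 in STING agonist 1 to 4. Its raw count was above background in 6 of the 8 tumors, so each value carries a large counting error, and the lowest value was that of STING agonist 2. Ctla4 (NM_009843.3), the inhibitory counterpart that regulatory T cells carry at all times, had 25.9 normalized counts in PBS 1, 42.0 in PBS 2 and 4 and 46.8 in PBS 3, against 21.0, 14.7, 47.0 and 43.2 in STING agonist 1 to 4. The STING-treated tumors split: STING agonist 1 and 2 were below every PBS sample, while STING agonist 3 was the highest of all and STING agonist 4 lay between PBS 2 and 4 and PBS 3. The log2 fold change was -0.24 for Cd28 (95% interval -1.13 to 0.65; adjusted p = 0.821, edgeR) and -0.27 for Ctla4 (95% interval -1.30 to 0.76; adjusted p = 0.824, edgeR). That of Cd28 was -0.055 without STING agonist 2, -0.061 without PBS 3, -0.44 without either PBS 1 or STING agonist 3 and -0.47 with TMM. That of Ctla4 was -0.040 without STING agonist 2, -0.093 without PBS 3 and -0.12 without STING agonist 1. It was -0.49 without PBS 1, -0.46 without STING agonist 4, -0.52 without STING agonist 3 and -0.51 with TMM. The size of both thus depended on the samples included.

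Icos (NM_017480.1), which activated T cells display, had 30.5 normalized counts in PBS 1, 17.5 in PBS 2 and 4 and 34.6 in PBS 3, against 32.7, 15.9, 28.6 and 29.1 in STING agonist 1 to 4. Pdcd1 (NM_008798.1), displayed by activated and by exhausted T cells, had 29.6 normalized counts in PBS 1, 15.2 in PBS 2 and 4 and 49.0 in PBS 3, against 38.5, 17.1, 36.8 and 38.8 in STING agonist 1 to 4. Both genes were low in PBS 2 and 4 and in STING agonist 2 and higher in the 5 other samples, so the difference within each group was larger than that between the groups. The log2 fold change was -0.06 for Icos (95% interval -0.90 to 0.79; adjusted p = 0.957, edgeR) and 0.06 for Pdcd1 (95% interval -0.97 to 1.09; adjusted p = 0.968, edgeR), and that of Pdcd1 was below 0 under both scalings to the panel (-0.15 with TMM, -0.17 with DESeq2 size factors). The 4 intervals include a lower as well as a higher level, so no difference was detectable in these samples, which does not show that the levels were the same.

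Set side by side, 2 of the 6 ligands (Cd274 and Cd86) and 0 of the 4 receptors were higher in STING-treated tumors at an unadjusted p under 0.05, and 0 of the 10 were lower. By the same rule, 17.7% of all 750 genes were higher and 1.33% lower, so the receptors' count of 0 is near what the panel as a whole gives for 4 genes. No ligand or receptor passed the adjusted threshold, and 0% of the 750 genes did with edgeR, where 143 had an unadjusted p under 0.05; limma called 0% too, and the DESeq2 Wald test 44. In the DESeq2 test Cd274 was the 1 ligand or receptor called (adjusted p = 0.029; over all alternatives its adjusted p was 0.029 to 0.407), where 5.73% of all genes were called as higher. Groups did not overlap for 1 of the 6 ligands (Cd274, higher) and 0 of the 4 receptors, against 16.8% of all genes higher and 1.47% lower.

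The count of ligands differed with 1 sample left out. It was 1 of 6 without PBS 1, without PBS 2 and 4, without STING agonist 1 or without STING agonist 4, where 12.4%, 12%, 10.3% and 10.5% of all genes were higher at an unadjusted p under 0.05, in that order. Cd86 was the ligand not counted in these 4 fits, with log2 fold changes of 1.12, 0.72, 0.94 and 0.76, so the call was lost also where the value was about as large as with all samples. The count was 4 of 6 without PBS 3, where 20.4% of all genes were. Among these 4 was Pdcd1lg2, whose raw counts of 3, 1 and 2 in PBS 1, PBS 2 and PBS 4 were all under the background. Cd274 was counted in each of these fits, with log2 fold changes between 1.0 without PBS 2 and 4 and 1.61 without PBS 3. With no sample left out the count of ligands was 1 with DESeq2 size factors, where 10.8% of all genes were higher. It was 3, with Icosl, in limma (17.5% of all genes), in limma after background subtraction (15.9%) and with all 8 tumors separate (24.8%). The count of receptors was 0 in all 16 alternative settings.

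The median log2 fold change was 0.57 over the ligands (range 0.02 to 1.23) and -0.15 over the receptors (range -0.27 to 0.06), beside 0.21 over all 750 genes. The ligand median was 1.05 without PBS 3 and 0.33 without PBS 1, and the receptor median was above 0 without PBS 3 (0.040) and without STING agonist 2 (0.039). Housekeeping scaling placed most of the panel higher in STING-treated tumors, and the genes with an unadjusted p under 0.05 split into 133 higher and 10 lower; with TMM the median of all genes was -0.02 and the split 87 to 40, and with DESeq2 size factors -0.04 and 81 to 45. The ligand median was 0.32 with TMM and 0.30 with DESeq2 size factors, and the receptor median -0.38 and -0.40. All 6 ligands had a log2 fold change above 0 with housekeeping scaling, but 4 of 6 with either of the other scalings, where Pdcd1lg2 and Cd276 were below 0. With housekeeping scaling 531 of all 750 genes were above 0 as well, and 1 of the 4 receptors. Relative to the median of all genes, Cd274 was higher by 1.02, Cd86 by 0.79 and Icosl by 0.46 on the log2 scale. Whether ligands and receptors differ as groups was not tested.

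**Figure D2:**
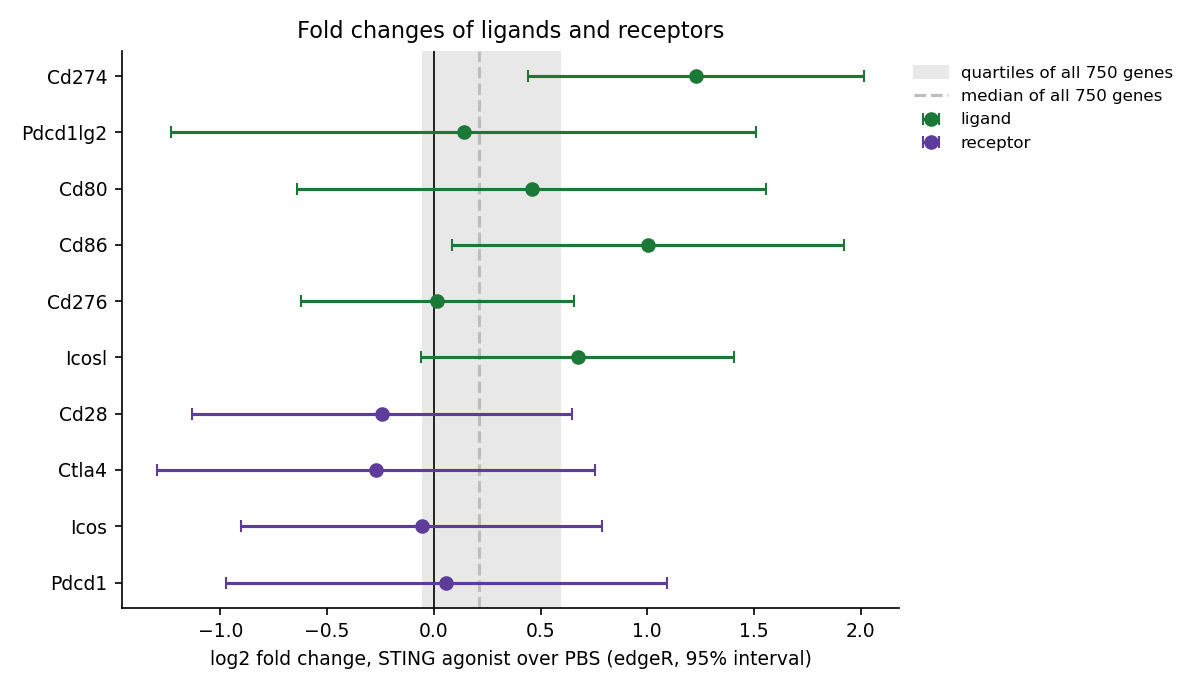
Log2 fold change of each ligand (green) and receptor (purple), STING agonist over PBS, from edgeR with 95% intervals; the gray band reaches from the lower to the upper quartile of all 750 genes (-0.05 to 0.59) and the dashed line their median (0.21). The intervals of Cd274 and Cd86 lie above 0, and those of the other 8 genes include 0.

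Among the STING-treated tumors, STING agonist 1 and 4 were the 2 highest for all 6 ligands, for 2 of the 4 receptors (Icos and Pdcd1) and for 43.6% of all 750 genes. With STING agonist 3 also the lowest, the order held for 5 of the 6 ligands (all but Cd80), 0 of the 4 receptors and 18.4% of all genes. STING agonist 1 and 4 stood 1.60 and 1.74 above the PBS mean in Cd274 on the log2 scale, 1.25 and 1.60 in Cd86, and 0.96 and 0.93 in Icosl. STING agonist 3 stood at 0.69, 0.40 and 0.33 for these 3 ligands. STING agonist 2 stood between them for the 3 ligands but was the lowest STING-treated tumor for each of the 4 receptors, from -0.69 for Pdcd1 to -1.28 for Ctla4. The share of all 750 genes lowest in that tumor was not counted, so the order is not shown to be particular to the receptors. PBS 3 was above the PBS mean for all 10 genes, from 0.30 for Cd28 to 1.41 for Pdcd1lg2. Over the 7 samples the Pearson correlation of log2(normalized count + 1) was 0.96 between Cd274 and Cd86, 0.95 between Cd274 and Icosl, 0.95 between Icos and Pdcd1, and 0.76 between Cd28 and Ctla4, while it was -0.20 between Cd274 and Ctla4. The other pairs of ligands were lower, from 0.36 (Cd80 and Cd86) to 0.84 (Cd86 and Icosl). So were the other pairs of receptors, from 0.37 (Ctla4 and Icos) to 0.50 (Cd28 and Icos). These correlations describe 7 samples of 2 groups, so the ligand values hold the difference between the groups as well.

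**Figure D3:**
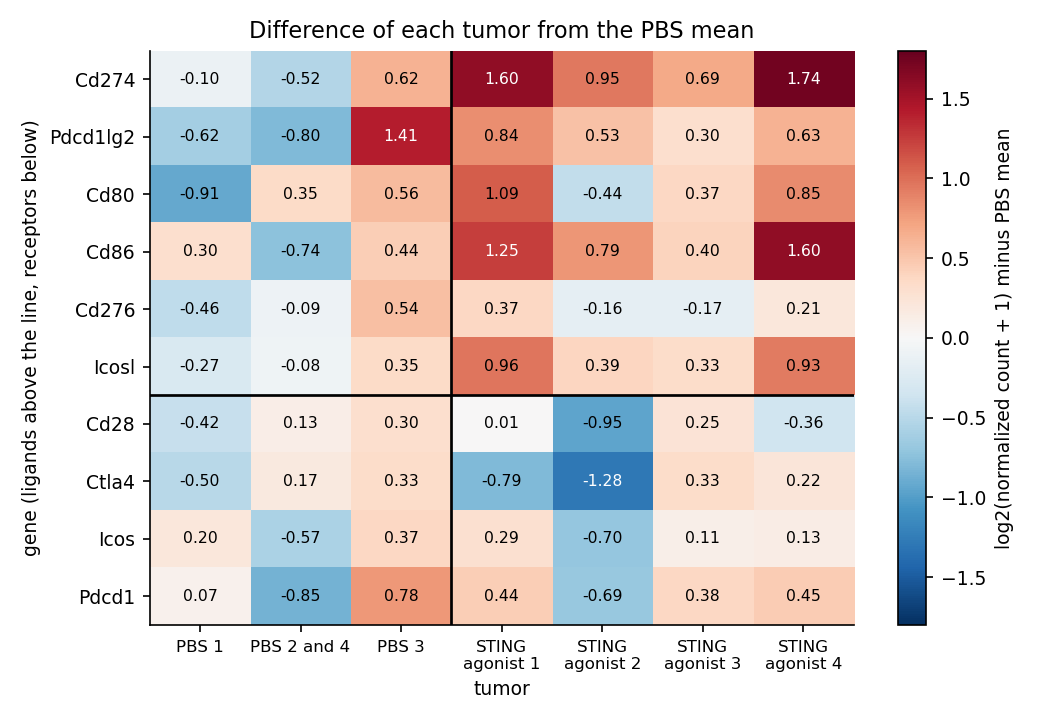
Difference of each sample from the mean of the PBS samples, in log2(normalized count + 1), for ligands (upper 6 genes) and receptors (lower 4) over the 3 PBS and 4 STING agonist samples. Cd274, Cd86 and Icosl are highest in STING agonist 1 and 4, and the receptors are lowest in STING agonist 2 among the STING-treated tumors.

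Likeness was measured over the 519 genes that averaged 20 counts or more. Those whose pattern over the 7 samples was most like that of Cd274 were Itgb2 (r = 0.990), Cd3g (0.989), Itgal (0.986), Cxcr6 (0.983) and H2-T23 (0.981). Itgb2 and Itgal encode the 2 chains of the leukocyte integrin LFA-1, Cd3g a chain of the T cell receptor complex, Cxcr6 a chemokine receptor of T and NKT cells, and H2-T23 the nonclassical MHC molecule Qa-1. Since they were picked for following Cd274 over the same samples, their own difference between the groups is no further observation. For Icos the most alike were Prkcd (0.986), Pdcd1 (0.950), Cd244 (0.903), Serpinb2 (0.894) and Il2rb (0.887).

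For leukocyte and T cell RNA, 3 reference genes are given, none of which passed the adjusted threshold in edgeR. Ptprc, which encodes the pan-leukocyte protein CD45, had 108, 42.0 and 111 normalized counts in PBS 1, PBS 2 and 4 and PBS 3, against 257, 166, 140.0 and 267 in STING agonist 1 to 4. All STING-treated tumors were above all PBS samples, in the same order as for Cd274. Its log2 fold change was 1.24 (95% interval 0.39 to 2.10; adjusted p = 0.181, edgeR), close to the 1.23 of Cd274. Like Cd274 it was called in the DESeq2 Wald test (adjusted p = 0.038). Cd3e, a chain of the T cell receptor complex, had 10.2, 5.83 and 13.0 in the PBS samples and 22.2, 14.7, 15.3 and 37.1 in STING agonist 1 to 4, a log2 fold change of 1.18 (95% interval 0.14 to 2.23; adjusted p = 0.223, edgeR). Foxp3, the transcription factor of regulatory T cells, had 0.93 to 7.94 normalized counts and a log2 fold change of 0.85 (95% interval -0.72 to 2.43; adjusted p = 0.551, edgeR), with means of 2.53 and 4.66 that both lie below the background.

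Within a tumor, the log2 ratio of Cd274 to Ptprc was 0.57, 1.49 and 1.26 in PBS 1, PBS 2 and 4 and PBS 3, against 1.03, 1.0, 0.99 and 1.12 in STING agonist 1 to 4. The ratios of the STING-treated tumors lay close together and inside the range of the PBS samples, with means of 1.11 ± 0.48 (SD, n = 3) and 1.03 ± 0.06 (SD, n = 4). For Cd86 to Ptprc the means were -1.38 ± 0.16 (SD, n = 3) and -1.69 ± 0.14 (SD, n = 4), and for Icosl to Ptprc -1.59 ± 0.78 and -2.25 ± 0.14, with overlap in both. Cd276 was the 1 of 6 ligands whose ratio was lower in every STING-treated tumor than in every PBS sample, from -1.30 to -0.75 against -0.67 to 1.04. This is read against 43.9% of the 749 other genes, whose ratio to Ptprc was lower in the same way. Cd80 and Pdcd1lg2 overlapped, with a mean difference of -0.85 and -0.74. These differences depended on single PBS samples. Without PBS 1 they were -1.53 for Cd80, -1.27 for Pdcd1lg2, -1.02 for Icosl and -0.34 for Cd274. Without PBS 2 and 4 they were -0.22 for Cd80, -0.25 for Icosl and 0.12 for Cd274, and without PBS 3 -0.27 for Pdcd1lg2. These ratios are descriptions, with no test.

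Ratios of the receptors to Cd3e are read against the whole panel, since the log2 fold change of Cd3e itself was 1.18 beside a median of 0.21 over all genes, so that most genes have a lower ratio to it in STING-treated tumors. The log2 ratio of Icos to Cd3e was 1.50, 1.44 and 1.35 in PBS 1, PBS 2 and 4 and PBS 3, against 0.54, 0.11, 0.86 and -0.34 in STING agonist 1 to 4, and that of Pdcd1 to Cd3e was 1.45, 1.24 and 1.84 against 0.77, 0.21, 1.21 and 0.07. For these 2 of the 4 receptors every STING-treated tumor was below every PBS sample, although STING agonist 3 came close to PBS 2 and 4 for Pdcd1; the same held for 36.8% of the 749 other genes, so 2 of 4 is near what the panel gives. For Ctla4 the means were 1.90 ± 0.70 (SD, n = 3) and 0.42 ± 0.76 (SD, n = 4), and for Cd28 0.43 ± 0.64 and -0.93 ± 0.76, with overlap in both. Cd3e was counted near the background, so its counting error enters all 4 ratios. Against Cd3d, the T cell gene with the highest mean count over the 7 samples, a reference chosen after the values were seen, the differences were smaller (-0.36 for Icos, -0.18 for Pdcd1, -0.70 for Ctla4 and -0.58 for Cd28) and the groups overlapped for all 4.

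**Figure D4:**
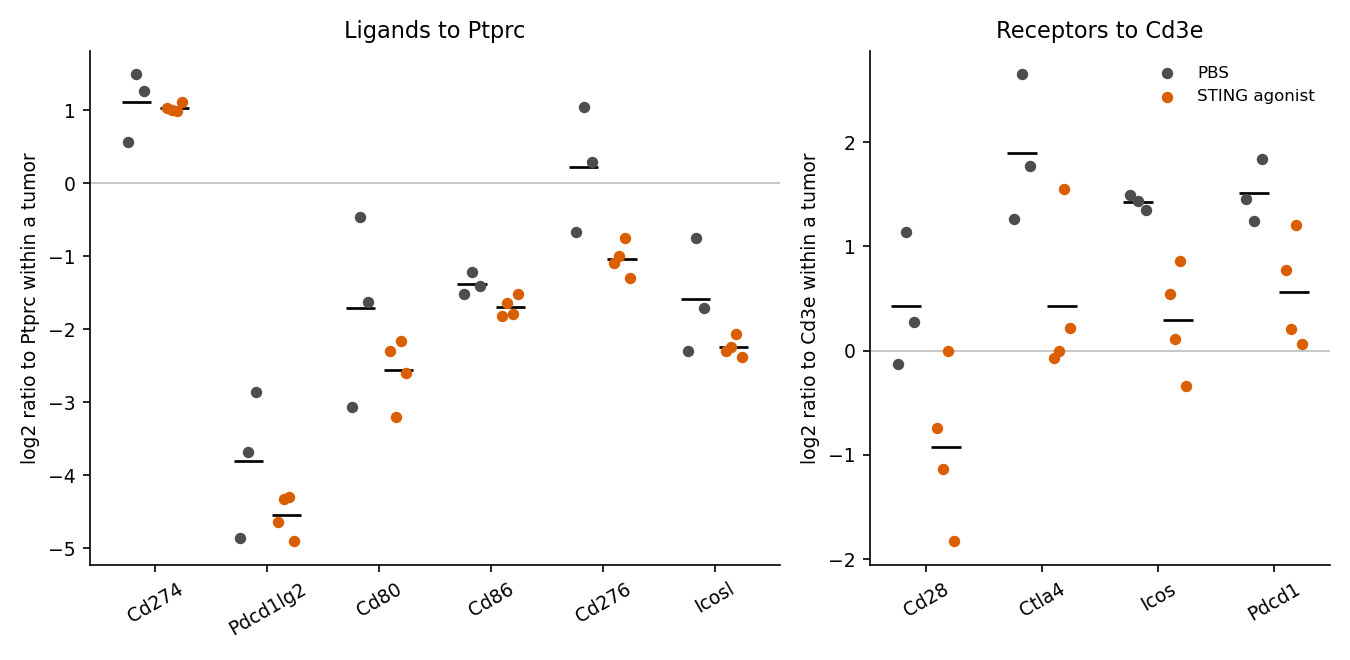
Log2 ratio within each tumor of the ligands to Ptprc (left) and of the receptors to Cd3e (right), in PBS (gray, 3 samples) and STING agonist (orange, 4 samples) tumors; short lines are means. The Cd274 ratios of both groups center near 1, and the Icos and Pdcd1 ratios of the STING-treated tumors lie below those of the PBS samples.

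Between a ligand and its receptor, the log2 ratio of Cd274 to Pdcd1 was 2.40, 2.91 and 2.42 in PBS 1, PBS 2 and 4 and PBS 3, against 3.73, 4.21, 2.89 and 3.87 in STING agonist 1 to 4. STING agonist 3 was level with PBS 2 and 4, and the 3 other STING-treated tumors were above every PBS sample. Cd86 to Ctla4 was 0.50, -1.22 and -0.19 against 1.74, 1.77, -0.23 and 1.08, so again the 3 STING-treated tumors other than STING agonist 3 were above every PBS sample. Icosl to Icos was -0.50, 0.46 and -0.06 against 0.64, 1.06, 0.19 and 0.77, with the same 3 tumors high. Of the 7 pairs computed, the same 3 tumors were above every PBS sample in Cd80 to Cd28, Cd86 to Cd28 and Cd80 to Ctla4 too, so in 6 of 7. The choice of these 3 tumors followed from their values, and with all 4 STING-treated tumors the groups overlapped in all 7 pairs. The pairs share genes and are not separate observations. By the same rule these 3 tumors were above every PBS sample for 14.2% of the 749 other genes against Pdcd1, 36.7% against Cd28, 25.5% against Ctla4 and 21.8% against Icos. In Pdcd1lg2 to Pdcd1 only STING agonist 2 was, with -3.02, -2.28 and -1.70 in the PBS samples against -1.93, -1.12, -2.41 and -2.16. A ratio of 2 probes has no absolute meaning, so the differences between tumors are what these values give, again with no test.

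Lists of other genes were counted by the unadjusted rule used above, by which 17.7% of all 750 genes were higher and 1.33% lower. The median log2 fold change of a list is followed in parentheses by that with TMM, to which DESeq2 size factors gave close values, and by its range with 1 sample left out. Of the other genes of these pathways, the axis from interferon-gamma to IRF1, which induces PD-L1 in many cells, had 4 of 9 measured genes higher and 0 lower, with a median of 0.52 (0.27; 0.40 to 0.59). From each list the gene with the highest mean count over the 7 samples is given too, which depends on its probe and does not rank the levels of the genes. Here it was Irf1, with means of 998 ± 145 (SD, n = 3) and 2010 ± 437 (SD, n = 4) and 1.01 on the log2 scale (adjusted p = 0.171, edgeR, and 0.048 without STING agonist 3); Stat2 had 409 ± 51.4 and 586 ± 98.7 (0.52). For both genes all STING-treated tumors were above all PBS samples. The list of other inhibitory receptors and ligands, which also holds an enzyme, had 3 of 13 higher and 0 lower, with a median of 0.11 (-0.14; -0.085 to 0.29): Ido1, the tryptophan-degrading enzyme (1.47), Cd200 (0.89) and Tnfrsf14, the receptor HVEM (0.70, and 0.46 without PBS 2 and 4). Pvr, a ligand of TIGIT and the gene with the highest count here, had a log2 fold change of 0.11.

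Costimulatory genes of the TNF family had 1 of 9 higher and 0 lower, with a median of 0.31 (0.12; 0.10 without PBS 2 and 4 to 0.80 without PBS 3). The 1 gene was Cd40, the receptor that licenses presenting cells and the gene with the highest count of the list, with means of 50.7 ± 14.3 (SD, n = 3) and 98.6 ± 14.9 (SD, n = 4) and a log2 fold change of 0.95 (adjusted p = 0.175, edgeR); 7 of the 9 had a mean under the background. The genes that signal below CD28 and PD-1 had 1 of 15 higher and 0 lower, with a median of 0.33 (0.094; 0.23 to 0.57). Nfkb1, with the highest count, had 0.05, which was below 0 with TMM (-0.20) and with DESeq2 size factors (-0.21).

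**Figure D5:**
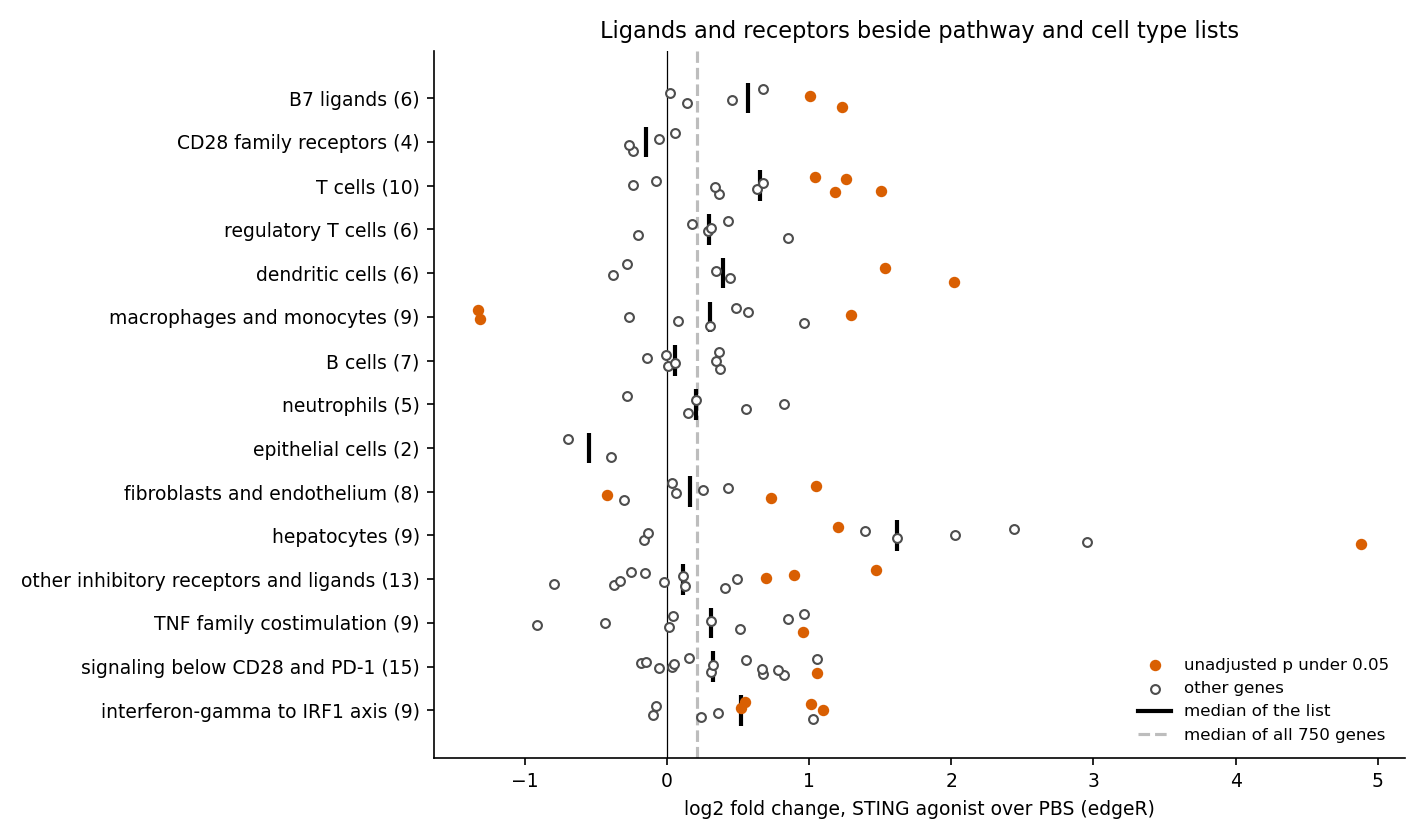
Log2 fold change, STING agonist over PBS (edgeR), of every measured gene of the ligands, the receptors and 13 lists of pathway and cell type genes, with the number of genes in parentheses; filled points have an unadjusted p under 0.05, black lines are list medians and the dashed line is the median of all 750 genes (0.21). The ligand median is 0.57 and the receptor median -0.15; the far point among the hepatocyte genes is Ambp, which was high in 1 tumor.

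Lists of cell type markers were counted in the same tumors. Of the T cell genes 4 of 10 were higher and 0 lower, with a median of 0.65 (0.45; 0.50 to 1.09): Cd3g (1.51), Cd8a (1.26) and Cd3e (1.18) had the lowest p-values, and Cd3d the highest count (0.36). Cd5 (-0.24) and Cd4 (-0.08) had a log2 fold change below 0, and 4 of the 10 genes had a mean under the background. The summed normalized count of the 10 genes was 184, 119 and 218 in PBS 1, PBS 2 and 4 and PBS 3, against 424, 230, 237 and 402 in STING agonist 1 to 4, so STING agonist 1 and 4 were high in T cell RNA as in Cd274 and Cd86. The regulatory T cell genes had 0 of 6 higher and 0 lower, with a median of 0.30 (0.080; 0.10 to 0.53), and Il2ra, with the highest count, had -0.20. The part of T cell or leukocyte RNA in the ligand and receptor values was not tested, and the ratios above are descriptions only.

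Of the genes of presenting cells, the dendritic cell list had 2 of 6 higher and 0 lower, with a median of 0.39 (0.15; 0.27 to 0.52), and 2 of the 6 had a log2 fold change below 0. Itgax, which encodes CD11c, had 2.02, an uncertain value since its 3 PBS counts (2.78, 3.50 and 5.76) were under the background, and Cd83, a marker of mature dendritic cells with the highest count of the list, 1.53. The summed count was 62.9, 73.4 and 75.6 in the PBS samples against 168, 81.9, 93.0 and 124 in STING agonist 1 to 4, again with STING agonist 1 and 4 on top. The macrophage and monocyte list had 1 of 9 higher and 2 lower, with a median of 0.30 (0.058; 0.17 to 0.47): Emr1, which encodes F4/80 (1.29), against the scavenger receptors Cd163 (-1.32) and Marco (-1.33, and -0.48 without PBS 3), while Cd68, with the highest count, had 0.30. Its summed count was 1918, 1150.4 and 2839 in the PBS samples against 2769, 1900 and 2361 in STING agonist 1 to 3 and 2737 in STING agonist 4, so the groups overlapped. PBS 3, which was high in most ligands among the PBS samples, had the highest sum of all.

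The B cell list had 0 of 7 genes higher or lower, with a median of 0.05 (-0.15; -0.15 to 0.48), and 6 of the 7 had a mean under the background; Cd79b, with the highest count, had 0.34. Neutrophil genes had 0 of 5 either way, with a median of 0.21 (-0.010; 0.079 to 0.50), and S100a8, with the highest count, had 0.15. The epithelial genes had 0 of 2 either way, with a median of -0.55 (-0.78; -0.72 to -0.37), and Cdh1, with the higher count, had -0.70. Of the fibroblast and endothelial genes 2 of 8 were higher and 1 lower, with a median of 0.16 (-0.093; 0.056 to 0.27): Kdr (1.05) and Col1a1 (0.73, and 0.45 without PBS 2 and 4), against Col3a1 (-0.42), which had the highest count.

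The hepatocyte list had 2 of 9 genes higher and 0 lower, with a median of 1.61 (1.39; -0.49 without STING agonist 4 to 2.63 without PBS 3), and all 9 were highest in that tumor. Its summed count was 169, 157 and 293 in the PBS samples, 265, 374 and 301 in STING agonist 1 to 3 and 1759 in STING agonist 4. Ambp, a plasma protein gene of hepatocytes, had 762 normalized counts in STING agonist 4 and 2.44 to 11.7 in the 6 other samples, with a log2 fold change of 4.88 that was 0.18 without that tumor. Serping1, with the highest count, is also made by other cells and was higher in all 4 STING-treated tumors (1.20). STING agonist 4 was also the tumor with the highest Cd274 and Cd86. Without it the log2 fold change was 1.05 for Cd274 (adjusted p = 0.324, edgeR), 0.76 for Cd86 (adjusted p = 0.481) and 0.57 for Icosl (adjusted p = 0.533).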

How the data were processed

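The authors extracted RNA from whole tumors with TRIzol, measured it with NanoString's murine PanCancer Immune Profiling panel (nCounter) and deposited raw counts of 784 probes, unscaled and with a lowest count of 1 in every tumor. The paper scales to housekeeping genes with nSolver and R; no version is given in the sources used here. Groups came from the sample labels, and dose, injections, collection day and age from the paper. The members and the gene lists were chosen with earlier results of these data known.

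Counts were scaled by the geometric mean over the 20 housekeeping probes. After scaling, housekeeping genes differed between groups by -0.23 to 0.19 on the log2 scale. The rounded mean of PBS 2 and 4 was used as 1 sample. Among probes of at least 1000 counts, where the counting error is small, this pair also differed least (chi-square 8.32 per degree of freedom, where the 11 others had 54.5 to 377), though by more than sampling noise. All 750 genes were tested unfiltered with edgeR 4.0.16 (R 4.3.3), by its quasi-likelihood test with Benjamini-Hochberg adjustment, which was tested on simulated data. Intervals of log2 fold changes use the fit's SE and degrees of freedom. Ratios and correlations used log2(normalized count + 1).

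The named genes were the 10 members, Ptprc, Cd3e and Foxp3; from each list the gene with the highest mean and up to 3 of the genes with the lowest p, if under 0.05; and the 5 genes most like Cd274 and Icos. For some of them no value is reported here. Lists hold the genes found on the panel. Of the probes, 727 of 750 matched a RefSeq transcript (GRCm38.p6), among them all 10 members; Emr1 is the panel's name for Adgre1. Alternatives were TMM, DESeq2 1.42.0 (size factors, Wald test), limma 3.58.1 with and without background subtraction, housekeeping probes of at least 100 counts, a filter at a mean of 20 counts, all 8 tumors separate, the replicate number as a block, and each sample left out in turn. Python 3.11.15 was used for tables and figures.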

Additional observations from a re-analysis of the deposited data

Results flagged for a closer look

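In the STING-treated group, 83 sets of 4 values (named genes, summed lists and log2 ratios) were checked for a tumor far from the 3 others. The measure was its gap to the nearest other value, divided by the group's whole range. It passed the 95% limit for 4 samples in 4 sets, where chance gives about 1 in 20, or 4.15 sets.

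Pdcd1 in STING agonist 2 was low, with 17.1 normalized counts against 36.8 to 38.8 in the 3 others (gap 0.906 of the range). The averaged PBS 2 and 4 had a like value of 15.2. Ambp in STING agonist 4 was high (gap 0.988), and so was the sum of the hepatocyte genes (gap 0.927), whose values are given with the cell type markers. The sum of the B cell genes was low in STING agonist 2, at 29.3 normalized counts against 59.1 to 64.4 (gap 0.85), and most of these genes were near the background. STING agonist 2 was thus the low tumor of its group for Pdcd1 and for B cell genes. The part of its cell makeup in the receptor values was not tested. PBS, with 3 samples, was not checked in this way.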

How the results depend on the processing

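The 4 receptors had 0 genes with an unadjusted p under 0.05 in all 16 alternatives, and Cd274, Cd80, Cd86, Icosl, Cd28 and Ctla4 kept the sign of their log2 fold change in every alternative that tested them. The number of genes with an adjusted p under 0.05 was 44 with the DESeq2 Wald test and 0 to 7 with 1 sample left out, against 0 in the main edgeR test. Of the genes named, the DESeq2 test called Cd274, Ptprc, Cd3g, Cxcr6, H2-T23, Itgax, Cd83, Kdr, Serping1, Ido1, Cd40 and Irf1, all higher, and Irf1 was also called by edgeR without STING agonist 3. The number with an unadjusted p under 0.05 was 84 to 160 with 1 sample left out, against 143, and 201 with all 8 tumors separate. The number of such ligands was 1 with DESeq2 size factors, 3 with limma, with limma after background subtraction and with all 8 tumors separate, where Icosl was counted too, and 1 to 4 with 1 sample left out, against 2. Of all genes 10.8% (DESeq2 size factors), 17.5%, 15.9% and 24.8% were higher in the first 4 of these settings, against 17.7% in the main edgeR test. The cause of these differences was not tested. The fits with 1 sample left out also have fewer samples.

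The log2 fold changes that took the other sign lay between -0.26 (Pdcd1) and 0.14 (Icos). With DESeq2 size factors and TMM, in that order, they were -0.057 and -0.034 for Pdcd1lg2, -0.23 and -0.21 for Cd276, -0.17 and -0.15 for Pdcd1, -0.17 and -0.16 for S100a8, -0.16 and -0.14 for Pvr, -0.21 and -0.20 for Nfkb1, and -0.17 and -0.16 for Il2rb, since both scalings move the panel's median to about 0. With all 8 tumors separate Icos had 0.072, Prkcd 0.037 and Cd244 0.060, and with limma after background subtraction Icos had 0.013. With 1 sample left out the range was -0.22 to 1.53 for Pdcd1lg2, -0.19 to 0.35 for Cd276, -0.29 to 0.14 for Icos, -0.26 to 0.54 for Pdcd1, -0.043 to 0.49 for S100a8, -0.093 to 0.29 for Pvr, -0.082 to 0.051 for Prkcd, -0.17 to 0.13 for Cd244 and -0.057 to 0.30 for Il2rb. Some other genes kept their sign with 1 sample left out, but the size moved. Their ranges were -0.30 to -0.033 for Il2ra, 0.47 to 1.57 for Foxp3 and 0.21 to 0.48 for Cd3d. The range was 0.21 to 0.57 for Cd79b, 0.17 to 0.47 for Cd68 and 0.0081 to 0.086 for Nfkb1.

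Samples of the same replicate number did not deviate together (correlations of -0.28 to -0.06, against -0.18 to 0.27 for different numbers). The main test therefore did not treat them as pairs, though so few correlations cannot exclude a pairing. With the replicate block and all 8 tumors separate, 0 genes passed the adjusted threshold and 172 the unadjusted one, and Icos had 0.093, Prkcd 0.039 and Cd244 0.043; no other named gene took the other sign, and Icosl lost the unadjusted call it had with all 8 tumors separate.

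The median of the T cell list was 1.26 with the filter at 20 counts and 1.44 with limma after background subtraction, against 0.65 with edgeR and 0.72 with limma alone, that of the dendritic cell list 0.94 with the filter, and that of the TNF family list 0.81 with limma after background subtraction.

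Depth limits the rarest transcripts. Pdcd1lg2 and Cd28 have mean raw counts of 6.88 and 12.1 and were not tested under the filter at 20 counts. Cd3e, near the background, sets the scale of the receptor ratios. With 3 against 4 samples, 1 of them the mean of a near-identical pair, a difference such as that of Cd86 loses its unadjusted call when any of 4 samples is left out.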
